A study of Mus musculus with 6 samples.

Results

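p53 binding after irradiation was compared between mouse splenic B cells and the remaining splenocytes, called non-B cells. The comparison rests on the 2 peak lists of irradiated Trp53+/+ animals, with 24507 peaks for B cells IR and 21400 for non-B cells IR, together 45907 of the 48115 peaks of the series. Peaks of the lists were matched where they shared at least 1 bp, and matched peaks were compared by the percentile of their deposited value within their own list.

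Both groups came from C57/Bl6 mice of 8 weeks, exposed whole-body to 7 Gy and killed after 4 h. B cells were the splenocytes retained by magnetic beads against B220, an isoform of CD45, and non-B cells were what ran through the column, a mixture rich in T cells. Chromatin was pooled across animals and precipitated with the p53 antibody NCL-p53-CM5p, and each group gave 1 library, so no value has a replicate error and no difference between B and non-B cells was tested. Mock lists of the same cell populations (1413 peaks in B cells, 712 in non-B cells) and a list from total spleen of irradiated Trp53-/- mice (83 peaks) served as background, and the input library of irradiated B cells was not used here as a list.

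p53 is a transcription factor that is stabilised by DNA damage and activates genes of cell cycle arrest, apoptosis and DNA repair. It binds as a tetramer to a response element made of a pair of decamers, each with a C and a G at fixed core positions. In the spleen, B and T lymphocytes are resting cells that die readily by p53-dependent apoptosis after irradiation. The chromatin that is open to p53 differs between lineages, where factors such as EBF1, PAX5, the octamer-binding POU2F proteins and PU.1 act in B cells, and RUNX, TCF/LEF, ETS and GATA3 proteins in T cells.

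The sequences below are the best matches to the response element at sites on which the comparison turns, with the core C and G of both decamers in capitals. They were read from the plus strand of mm9 and allow at most 3 mismatches to the consensus outside the core. The first 5 lie under peaks that ranked far higher in B cells or were found in B cells alone, the next 3 under peaks that ranked higher in non-B cells, and the last 3 under peaks at the top of both lists.
Bcl2l11, chr2:127989035-127989054: tggCatGctcgcaCttGcct
Bcl2, chr1:108452995-108453014: atgCgtGttagaaCatGttc
Gstp2, chr19:4047112-4047131: agaCaaGtctgagCctGccc
Psmc1, chr12:101329129-101329148: gggCttGtcagagCatGcat
Sp110, chr1:87477648-87477667: tggCatGtccaggCatGacc
Samhd1, chr2:156947126-156947145: aggCtaGcctgggCgaGttc
Dyrk2, chr10:118438610-118438629: taaCtaGcataggCatGtcg
4930524B15Rik, chr11:31864252-31864271: gcaCatGcttaggCaaGacc
Cdkn1a, chr17:29227873-29227892: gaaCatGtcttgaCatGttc
Psrc1, chr3:108187574-108187593: gggCatGttgaggCatGccc
Tnfsf8, chr4:63503367-63503386: gtaCaaGcccaggCttGtct
An element lay within 300 bp of the midpoint in 1 of the 10 pairs with the largest excess in B cells and in 2 of the 10 with the largest excess in non-B cells, in 3 of 5 and 1 of 5 pairs of high rank in B and non-B cells, and in 4 of the 5 pairs with the highest mean percentile, beside 17.1% of all pairs. Among the 10 highest peaks of 1 list only, 1 had an element in B and 0 in non-B cells.

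At several of the highest peaks found in 1 list only, the bases near the midpoint matched motifs of lineage factors. They are shown in stretches of 100 bp of mm9 (plus strand), centred on a match. In the first 3, from peaks of B cells alone, capitals mark the octamer ATGCAAAT on either strand and, in Bcor, a pair of overlapping matches to CCCNNGGG, the letters searched for EBF. In the last 3, from peaks of non-B cells alone, capitals mark TGTGGTT (RUNX) or CTTTGAT (TCF/LEF) on either strand.
Bcor intron, chrX:11700842-11700941: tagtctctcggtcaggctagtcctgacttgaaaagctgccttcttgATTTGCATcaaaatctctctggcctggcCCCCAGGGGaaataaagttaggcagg
Maml3 intron, chr3:51602427-51602526: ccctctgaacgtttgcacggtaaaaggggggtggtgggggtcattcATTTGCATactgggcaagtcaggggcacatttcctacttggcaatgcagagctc
Trak1 intron, chr9:121338894-121338993: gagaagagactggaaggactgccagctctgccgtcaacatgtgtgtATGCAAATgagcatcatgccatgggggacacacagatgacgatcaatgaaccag
Fyb intron, chr15:6542716-6542815: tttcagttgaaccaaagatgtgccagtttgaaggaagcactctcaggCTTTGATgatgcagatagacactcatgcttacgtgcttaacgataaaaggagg
Tnfrsf14 upstream, chr4:154310774-154310873: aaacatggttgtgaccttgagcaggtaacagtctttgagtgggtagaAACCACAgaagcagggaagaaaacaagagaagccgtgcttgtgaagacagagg
Stat5b intron, chr11:100685373-100685472: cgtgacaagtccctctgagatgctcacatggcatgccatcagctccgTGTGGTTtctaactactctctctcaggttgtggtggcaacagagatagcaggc
Such a match is a description of the sequence and not a measured binding site of the factor. The stretches were chosen for their matches. RUNX letters also lay at a high peak of B cells alone in an Ahnak intron, and GATA letters (AGATAA) at another in Arhgef3. The octamer lay at 3.64% of all peaks of B cells alone and 1.53% of those of non-B cells alone. For EBF letters these shares were 11.9 and 8.32%, for RUNX 9.19 and 17.8%, and for TCF/LEF 3.82 and 6.95%.

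Most binding sites were shared. Of the B cell peaks, 18045 (73.6%) overlapped a non-B peak, and 18262 non-B peaks (85.3%) overlapped a B cell peak. Joining each peak to its best partner gave 17868 pairs, with midpoints at a median distance of 33 bp. The percentiles of the pairs correlated across sites with a Spearman coefficient of 0.769 (n = 17868 pairs, not independent replicates). The deposited value, read here as −log10 of the peak caller's p-value, reached 326.39 in B and 620.98 in non-B cells, so only ranks were compared.

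The difference of a pair, B minus non-B, had a median of 2.77 percentile points and an SD across pairs of 19.6. Among quintiles of pairs by their mean percentile, from the lowest to the highest, the SD was 21.1, 27.4, 21.7, 13.8 and 5.08 points. Pairs in the highest quintile ranked high in both lists by this choice and had little room to differ.

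At a threshold of 20 points, 3454 pairs (19.3%) ranked higher in B cells, against 1584 (8.87%) in non-B cells. The split depends on how percentiles are centred. With percentiles taken among the pairs alone, which gives both sides the same mean, the numbers were 2487 (13.9%) and 2471 (13.8%), so that the share of called pairs that were higher in B cells went from 68.6 to 50.2%. Counts of pairs below are therefore read against both scales.

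Peaks in 1 list only were mostly weak. The 6462 peaks of B cells alone had a median percentile of 20.8, with 5 above the 80th and 0 above the 90th, and the 3138 peaks of non-B cells alone a median of 18.9, with 14 and 0. In 20.7 and 16.5% of them, respectively, a peak of the other list lay within 1 kb. A peak missing from a list is one that was not called there, and how many reads it had in that library was not analysed here.

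**Figure D1:**
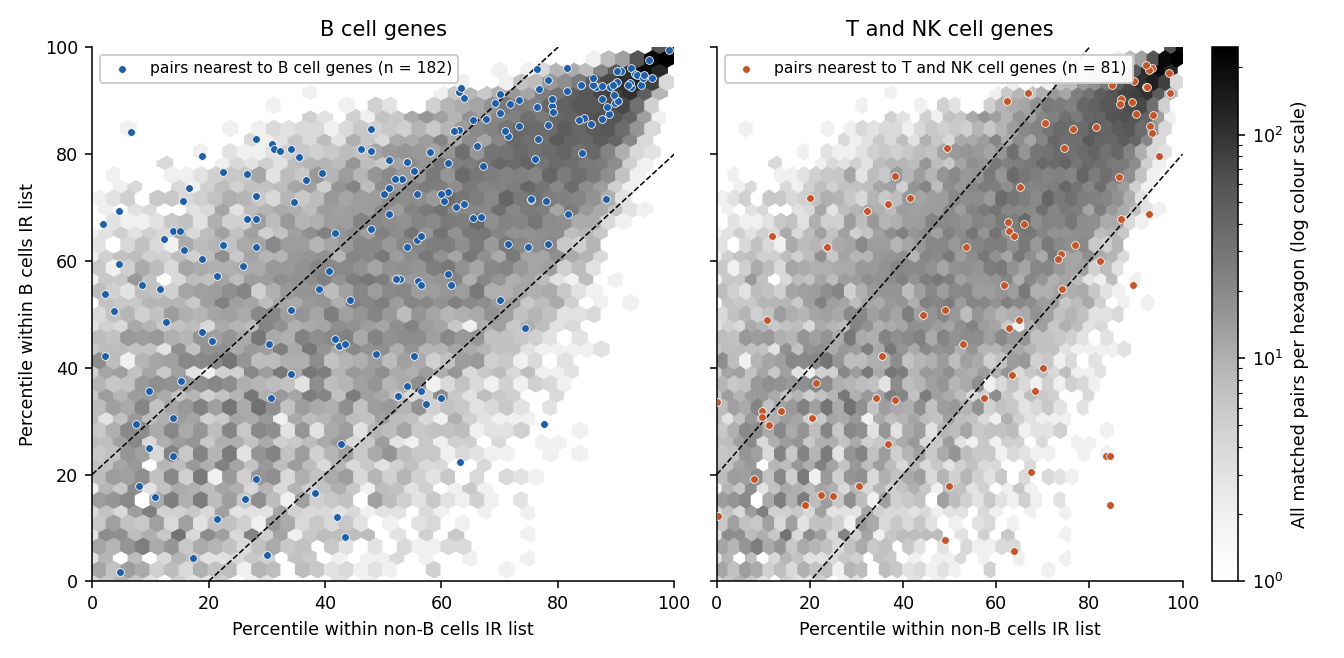
Percentile of each matched pair within the non-B cells IR list (x axis) and the B cells IR list (y axis), with all 17868 pairs as grey hexagons and the pairs nearest to B cell genes (left, 182 pairs) or T and NK cell genes (right, 81 pairs) as points. Dashed lines mark differences of 20 points, which 63 of the B cell gene pairs passed towards B cells and 14 of the T and NK cell gene pairs passed in each direction.

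Among the 10 pairs with the largest excess in B cells, the Igkv1-115 site, between variable segments of the immunoglobulin kappa locus at chr6:68206652-68207055, had a deposited value of 45.85 in B and 8.36 in non-B cells (84.0th against 5.60th percentile, 78.4 points higher in B cells). A site in an intron of Ebf1, the transcription factor that commits progenitors to the B lineage, had values of 46.03 and 8.44 (77.4 points). It lay 143 kb inside the gene at chr11:44574351-44575197 and its peak spanned 847 bp in B but 194 bp in non-B cells.

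A site 37.3 kb beyond the start of Bcl2l11, which encodes the pro-apoptotic protein BIM, had values of 36.49 in B and 7.49 in non-B cells (74.3 points). A site 10.5 kb upstream of Ccr6, a chemokine receptor of mature B cells, had values of 57.2 and 10.22 (73.9 points). The site upstream of Csf1, the macrophage growth factor, had values of 47.22 and 10.19 (70.9 points). The remaining 5 of these 10 pairs lay nearest to Gpcpd1, Chchd3, Pde7a, Aff1 and Treml2, with differences of 72.7, 72.2, 70.9, 70.5 and 70.1 points.

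Among the 10 pairs with the largest excess in non-B cells, an intronic site of Pik3r5, a regulatory subunit of phosphoinositide 3-kinase gamma, had a value of 7.99 in B and 45.62 in non-B cells (4.36th against 85.0th percentile, a difference of -80.7 points). An intronic site of Samhd1, a nucleotide triphosphohydrolase, had values of 7.66 and 38.44 (-76.6 points). At the start of Atg7, an activating enzyme of autophagy, the values were 8.41 and 39.92 (-74.8 points). Each of these peaks was near the weakest of the B cell list.

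The Themis site, 5 bp from the start of a gene required for T cell selection in the thymus, had values of 10.16 in B and 44.59 in non-B cells (-70.2 points). A mock peak was called there for non-B cells and none for B cells. The others of these 10 pairs lay nearest to Arhgap15, Mxd4, Fam160b1, Ap3s1-ps2, B4galnt1 and 4930524B15Rik, with differences between -74.3 and -69.2 points.

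Among pairs with a percentile of at least 90 in 1 of the lists, large differences also reached known p53 targets. A site 14.5 kb upstream of Btg2, an anti-proliferative p53 target, had values of 63.48 in B and 13.38 in non-B cells (61.1 points), whereas the highest Btg2 peaks had 207.9 and 276.77. The intronic site of Bcl2, the anti-apoptotic founder of its family, had values of 82.55 and 16.41 (52.2 points). The sites of Gstp2, Bnc1 and Psmc1 differed by 54.5, 52.4 and 50.5 points. At 3 of these 5 pairs, Bcl2, Gstp2 and Psmc1, the response elements printed above lay within 300 bp.

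In the opposite direction, an intronic site of the cytokine receptor kinase gene Jak1 had values of 12.91 in B and 57.86 in non-B cells (-63.4 points) and overlapped a non-B mock peak. The site assigned to Axin2, a negative regulator of Wnt signalling, had values of 15.13 and 64.79 (-56.8 points), but it overlapped peaks of both mock lists and of the Trp53-/- list. The sites of Pde7a, Dyrk2 and Ier5 differed by -51.0, -40.1 and -38.5 points. Pde7a, a phosphodiesterase gene, thus had 1 site among the largest differences in each direction, 37.2 kb upstream of its start for B cells and 6.24 kb inside the gene for non-B cells.

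The pairs with the highest mean percentile lay at Psrc1, Cdkn1a, Tnfsf8, Sp1 and in an intron of Alk (nearest start, Clip4). Cdkn1a encodes the cell cycle inhibitor p21, and its promoter peak had a value of 318.37 in B and 620.98 in non-B cells, with percentiles of 99.97 and 99.998. The Psrc1 peak had values of 326.39 and 598.72. All 5 overlapped mock peaks of both populations, and their differences were between -0.02 and 0.01 points.

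Of the 10 highest peaks of B cells alone 10 lay in introns, and of those of non-B cells alone 4 lay in introns, 5 between genes and 1 in a UTR. The share of introns over all peaks was not counted, so no contrast between the lists is drawn from these numbers. In B cells the highest was an intronic peak of Bcor, the BCL6 corepressor, with a value of 55.65 (88.3rd percentile), followed by peaks in introns of Slit1 (44.37), Sp110 (41.07), Arhgef3 (40.83) and Sash1 (40.44). In non-B cells the highest was an intronic peak of the splicing kinase gene Srpk1, with 50.12 (87.2nd percentile), followed by peaks in Tnrc6b (45.96), upstream of Gm11077 (45.96), in Fyb (44.59) and upstream of Tnfrsf14 (43.92). Fyb encodes an adaptor of T cell receptor signalling, and Tnfrsf14 the receptor HVEM.

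Arhgef3, a guanine nucleotide exchange factor gene, had a peak of B cells alone at chr14:28209640-28209965 and, within the same gene, one of non-B cells alone at chr14:28197373-28197826, with values of 40.83 and 41.88. Further peaks of non-B cells alone had values between 40.99 and 43.57. They lay in an intron of Stat5b, 233 kb from the start of Ets1 and, as a pair of sites, 95.4 and 116 kb upstream of 4933412E24Rik. Of the 10 highest peaks of non-B cells alone, those in Srpk1 and nearest to Ets1 overlapped non-B mock peaks, beside 1.31% of all 3138 peaks of non-B cells alone.

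Sites near genes of the B and T lineages were counted next. Each peak was assigned to the nearest start site of a protein-coding gene, and pairs nearest to 36 B cell genes and 48 T and NK cell genes were counted. At B cell genes, 63 of 182 pairs (34.6%) ranked at least 20 points higher in B cells, against 10 (5.49%) in non-B cells, beside 19.3 and 8.87% of all pairs. On the scale of the pairs alone the shares were 31.9 and 10.4%, beside 13.9 and 13.8%. Of the B cell peaks at these genes, 104 of 287 (36.2%) had no non-B partner, beside 26.4% of all B cell peaks, and 8 of 199 non-B peaks (4.02%) had no B cell partner, beside 14.7% of all non-B peaks. With the B cell list limited to its 21400 highest peaks these were 73 of 250 (29.2%), beside 20.4%, and 14 of 199 (7.04%), beside 19.1%. Ribosomal protein genes had a like share of non-B peaks without a partner, 4.13%.

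At T and NK cell genes the balance was different. There, 14 of 81 pairs (17.3%) passed 20 points in each direction, and on the scale of the pairs alone 13.6% were higher in B cells, against 27.2% in non-B cells. Of the non-B peaks, 90 of 172 (52.3%) had no partner in B cells, beside 14.7% of all non-B peaks. Of the B cell peaks, 18 of 102 (17.6%) had none in non-B cells, beside 26.4% of all B cell peaks. When the B cell list was limited to its 21400 highest peaks, 93 of the 172 non-B peaks (54.1%, beside 19.1%) and 13 of the 92 B cell peaks (14.1%, beside 20.4%) had no partner.

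**Figure D2:**
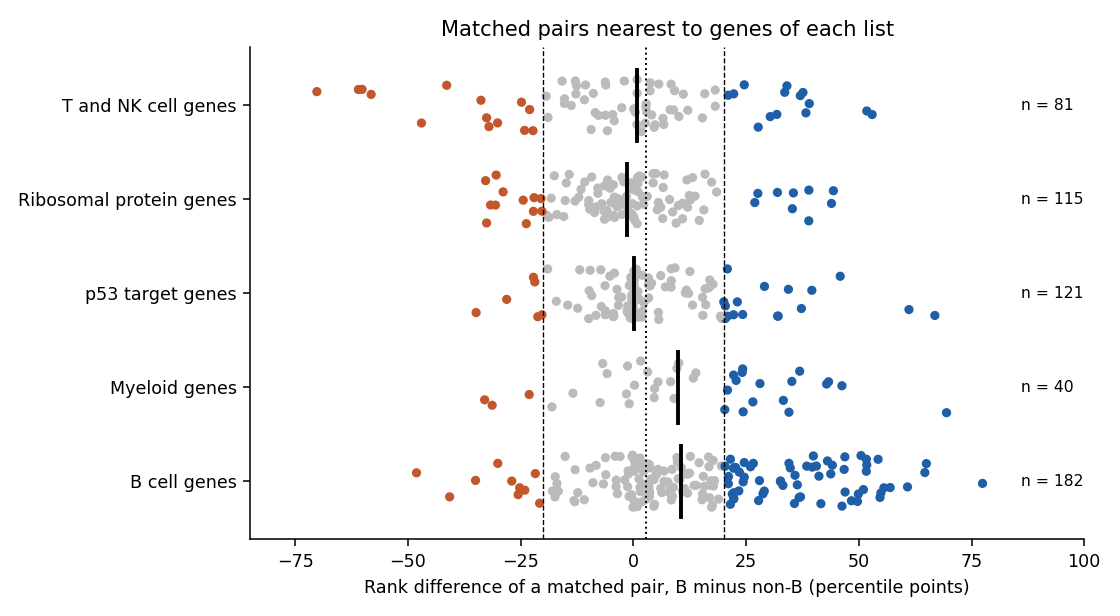
Rank difference in percentile points (x axis) of every matched pair nearest to a gene of each list, with points past 20 points coloured blue (higher in B cells) or orange (higher in non-B cells). The bar marks the median of a list and the dotted line the median of all pairs (2.77). The medians were 10.5 points for B cell genes, 0.77 for T and NK cell genes and 0.17 for p53 target genes, and on the scale of the pairs alone 8.20, -3.23 and -0.04 points.

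Single genes of these lists held many sites. Pax5 encodes a factor that maintains B cell identity, and 9 of its 13 pairs ranked at least 20 points higher in B and 0 in non-B cells. It also had 5 peaks of B cells alone and 1 of non-B cells alone. The most distant intronic site, 172 kb inside the gene at chr4:44550578-44551277, had values of 103.23 in B and 34 in non-B cells (19.5 points, just under the threshold), and a site 42.8 kb inside had 26.12 and 10.08 (51.7 points). The pair 5.81 kb inside Pax5 had nearly equal values, of 21.74 and 21.8.

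Tcf7 encodes TCF-1, a transcription factor of T cells. All 4 of its pairs had the higher percentile in non-B cells, and 2 of them passed 20 points. A site 31.0 kb upstream at chr11:52127567-52127825 had values of 12.09 in B and 44.59 in non-B cells, and an intronic site at chr11:52079195-52079419 had 12.09 and 43.23. A further 5 Tcf7 peaks were found in non-B cells alone and 0 in B cells alone.

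**Figure D3:**
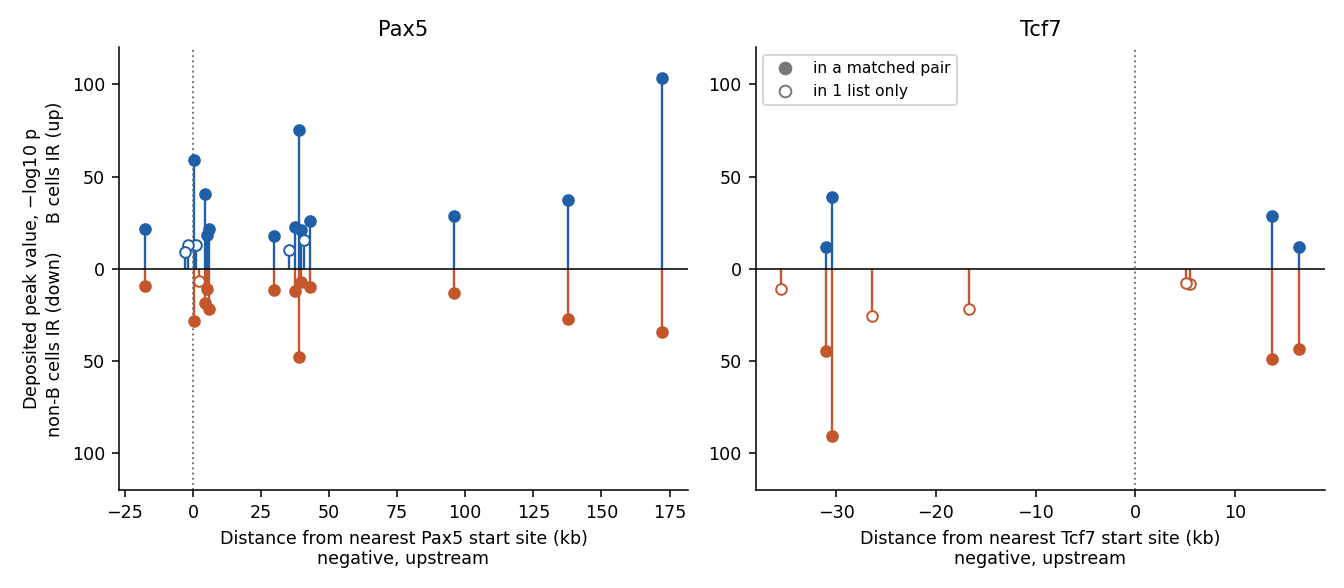
Deposited value (read as −log10 p) of each peak nearest to Pax5 (left) or Tcf7 (right) against its distance in kb from the start site, with B cells IR upwards and non-B cells IR downwards. Filled points belong to matched pairs and open points to peaks of 1 list. At Pax5 the highest values were 103.23 in B and 47.51 in non-B cells, at different sites, and at Tcf7 the highest non-B value was 90.58, beside 39.11 in B cells.

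Other B cell genes differed at 1 or more sites. Blk, a SRC-family kinase of the B cell receptor pathway, had a promoter pair with values of 31.38 in B and 13.13 in non-B cells, another pair with 19.61 and 7.66, and 5 peaks of B cells alone. Ebf1 had 14 peaks of B cells alone and 0 of non-B cells alone, and 6 of its 18 pairs passed 20 points towards B cells and 1 towards non-B cells. The promoter pair of Cr2, the complement receptor CD21, had values of 50.99 and 26.19 (21.0 points). Cd24a, a surface glycoprotein gene, was the 1 B cell gene with peaks in B cells alone, 6 in all, of which the highest had a value of 16.19. This 1 of 36 (2.78%) lay below the 5.32% of all protein-coding genes with a peak in B cells alone.

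T cell genes with peaks in non-B cells alone were 11 of the 48, or 22.9%, beside 3.25% of all protein-coding genes, and 0 had peaks in B cells alone, beside 5.32%. They were Cd3g, Cd8a, Cd6, Cd28, Icos, Il2rb, Skap1, Cd27, Klrd1, Gzmb and Eomes. The number was also 11 with the B cell list limited to 21400 peaks. Skap1, an adaptor of T cell receptor signalling, had 3 such peaks with values of 35.95, 31.46 and 23.88.

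Cd28 and Icos, costimulatory receptors of T cells, each had a peak at the start site. The Cd28 peak at chr1:60802999-60803352 had a value of 24.14 and the Icos peak at chr1:61034636-61034917 a value of 28.6, and neither had a counterpart in B cells. Gata3, a factor of T helper cells, had its highest pair 177 kb from the start with values of 28.89 in B and 71.98 in non-B cells (-24.1 points). Il7r, the interleukin-7 receptor gene, had highest peaks of 25.25 and 40.99 (-19.6 points), at sites that did not overlap.

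Ctla4, an inhibitory receptor of T cells, had sites of both kinds. A peak of non-B cells alone, 62 bp from its start, had a value of 18.42, and a pair 32.0 kb away had 31.23 in B and 11.25 in non-B cells (51.8 points). Fasl, the gene of the death receptor ligand, had a peak of non-B cells alone 16 bp from its start, with a value of 22.96. At 53.3 kb from the start, it had a pair with 31.23 in B and 16.32 in non-B cells.

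By the highest peak of each gene the lists stood out less. Of the 22219 protein-coding genes, 9346 had peaks in both lists, and their highest peak ranked at least 20 points higher in B cells in 12.1% and in non-B cells in 8.38%. In the 35 B cell genes with peaks in both lists these were 3 genes (Blk, Xbp1 and Cr2) and 0, and in the 28 T and NK cell genes 1 (Ctla4) and 2 (among them Gata3). These shares lay near or below those of all genes. The highest peaks of a gene in B and non-B cells overlapped in 8129 (87.0%) of the 9346 genes, but not at Xbp1 and Ctla4. The median difference was 3.32 points for B cell genes and -0.95 for T and NK cell genes, beside 0.66 for all genes. Among the pairs alone the medians were 2.68 and -5.25 points (95% interval of the latter, -14.04 to -0.42, against -8.14 to 2.63 on the first scale). Ranked by width they were 7.53 and -4.66 points (-8.64 to -1.47), and with promoter peaks alone that of B cell genes was 8.00 points. These intervals cover the spread across the listed genes within 1 library per group, and no difference was tested.

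Of the 36 B cell genes 35 had a peak in non-B cells, beside 45.3% of all protein-coding genes. The Cd79a peaks, at a chain of the B cell receptor, had values of 77.7 in B and 68.98 in non-B cells. Conversely, 28 of the 48 T and NK cell genes had a peak in B cells, beside 47.4% of all genes, among them Cd3d with 45.85 in B and 76.3 in non-B cells. Cd3e, Cd8b1, Foxp3, Gzma and Prf1 had none in either list. Peak lists hold no expression level, so the labels of the sorted cells could not be checked by expression here. The paper analysed the sorted fractions by flow cytometry, with B220 and IgM for B cells and B220 and CD3ε for non-B cells. Here the part of B cells left in the non-B fraction, or T cells in the B220-selected fraction, was not tested. In such mixtures, more cells with a bound site and stronger binding per cell cannot be told apart.

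Across the genome, the number of genes with a peak in 1 list only depended on the length of the lists. A peak was assigned in B cells alone to 1181 genes (5.32%) and in non-B cells alone to 723 (3.25%), and with the B cell list limited to 21400 peaks the numbers were 875 and 1047. Part of them had a matched peak whose midpoints fell nearest to different genes, as at the shared promoter of H2-Ke2 and Wdr46, with values of 251.71 and 336.98. Without such genes 1062 and 614 were counted.

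Of the 54 known p53 target genes with an annotated start, 48 had peaks in both lists and 5 in neither, and their highest peaks differed by a median of 0.03 points. In 31 of the 48 both highest peaks were at or above the 90th percentile, where ranks can differ by at most 10 points. Over all 121 pairs at these genes, 17 (14.05%) ranked at least 20 points higher in B cells, against 6 (4.96%) in non-B cells, and among the pairs alone 10.7 and 7.44%. The genes of apoptosis Bax (298.39 in B and 462 in non-B cells), Bbc3 (269.88 and 488.4) and Pmaip1 (269.08 and 392.26) were above the 99th percentile of both lists. At Mdm2, whose product degrades p53, the highest values were 223.88 and 297.33, at sites that did not overlap.

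A few targets with weaker sites differed. Bid, a BH3-only protein of the death receptor pathway, had highest values of 35.2 in B and 17.32 in non-B cells (32.0 points), and a site in an intron, 1.87 kb from the start, had 28.97 and 7.29 (66.9 points). Apaf1, the apoptosome scaffold, had an intronic pair with 31.38 and 18.42 (24.2 points), and a site 37.7 kb from the start of the Cdkn2a tumour suppressor had 39.82 and 16.98 (37.2 points). In non-B cells Tap1, the peptide transporter of antigen presentation, was higher with 24.58 against 17.13 in B cells (-20.3 points), and Pltp had 16.8 against 12.62 (-17.1 points). Perp was the 1 target with peaks in B cells alone, all of them 39.3 kb or more from its start. This 1 of 54 (1.85%) lay below the 5.32% of all protein-coding genes.

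Of 32 myeloid genes, 18 had peaks in both lists, 2 (Itgax and Csf2rb) in B cells alone, 1 (Cd68) in non-B cells alone and 11 in neither. The shares in 1 list only, 6.25% for B and 3.125% for non-B cells, lay near the 5.32 and 3.25% of all protein-coding genes. Csf3r, the granulocyte growth factor receptor, had highest values of 32.1 in B and 12.85 in non-B cells (46.2 points), Sirpa 24.07 and 12.13 (36.9 points) and Itgam 30.89 and 17.27 (28.1 points). Cx3cr1, a chemokine receptor gene of monocytes, went towards non-B cells, with 9.23 and 16.25 (-31.3 points). At myeloid genes 17 of 40 pairs (42.5%) ranked at least 20 points higher in B cells, against 3 (7.50%) in non-B cells, beside 19.3 and 8.87% of all pairs, and among the pairs alone 30 and 10%, beside 13.9 and 13.8%. Myeloid genes, whose cells belong to the non-B fraction, thus exceeded the 34.6% of B cell genes on the first scale. Among the pairs alone the order turned, with 30% of myeloid and 31.9% of B cell gene pairs. Neither difference was tested.

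Of 16 erythroid and megakaryocyte genes, 13 had no peak in either list, among them the haemoglobin genes Hba-a1 and Hbb-b1. Tfrc, the transferrin receptor gene of dividing and erythroid cells, had a promoter pair with 7.61 in B and 19.68 in non-B cells (-48.3 points). Of the 74 ribosomal protein genes with peaks in both lists, the highest peak ranked at least 20 points higher in non-B cells in 9 and in B cells in 2, with a median of -2.33 points. These shares were 12.2 and 2.70%, beside 8.38 and 12.1% of all genes, whose median was 0.66.

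At the antigen receptor loci the immunoglobulin kappa locus differed most in number. Between its outermost segments, at chr6:67505630-70676751, there were 37 peaks in B and 12 in non-B cells, and 0 mock peaks of either population. Of the peaks after irradiation 25 and 0 had no partner, beside 26.4% of all B cell and 14.7% of all non-B peaks. The immunoglobulin heavy chain locus had 20 and 16 peaks, of which 9 and 6 had no partner. The T cell receptor alpha and delta locus had 3 and 5 (0 and 2 without a partner), the beta locus 4 and 6 (0 and 2) and the gamma locus 2 and 1 (1 and 0). These loci were not recounted with lists of equal size.

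Motifs of lineage factors, which played no part in choosing the classes, were distributed unequally among the sites. Letters were searched within 150 bp of the midpoint, and distal peaks are given because promoters differ in base composition. A peak was distal unless it lay between -5 and +2 kb of an annotated start. For a pair, both were taken at the midpoint of its B cell peak, also where the pair ranked higher in non-B cells. The 95% Wilson intervals given cover counting error only, and neighbouring peaks are not independent.

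The RUNX letters were present in 22.1% (20.3 to 24.0%) of 1886 distal peaks of non-B cells alone and in 9.90% (9.01 to 10.9%) of 4031 of B cells alone, beside 13.2% of all 8756 distal pairs. The TCF/LEF letters were present in 7.95% (6.82 to 9.26%) and 4.19% (3.62 to 4.86%), beside 4.43%. Distal pairs that ranked higher in non-B cells had RUNX in 18.6% and TCF/LEF in 7.07% of 580, against 11.7 and 3.29% of 2068 that ranked higher in B cells. Both factors act in T cells, and among distal peaks their letters were more frequent on the non-B side in both classes.

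PU.1, EBF and octamer letters were less frequent in peaks of non-B cells alone. GAGGAAGT, the PU.1 letters, was present in 12.5% (11.5 to 13.5%) of distal peaks of B cells alone and in 6.26% (5.25 to 7.44%) of those of non-B cells alone, beside 11.0% of distal pairs. The octamer was present in 4.29% (3.71 to 4.96%) and 1.43% (0.99 to 2.07%), beside 3.94%. The EBF letters were present in 10.1% (9.20 to 11.1%) and 5.25% (4.33 to 6.35%), beside 9.90%. In these 3 motifs the peaks of B cells alone were close to the shared sites, and the peaks of non-B cells alone stood below them.

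The GATA letters, AGATAA, differed less, with 13.8% of distal peaks of B cells alone and 16.6% of those of non-B cells alone. With the classes drawn from percentiles among the pairs alone and distal and promoter peaks together, pairs higher in B cells had PU.1 in 11.0% and the octamer in 3.98%, and pairs higher in non-B cells in 5.19 and 1.94%. EBF, at 11.6 and 12.4%, and RUNX, at 10.5 and 10.7%, had overlapping intervals there.

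**Figure D4:**
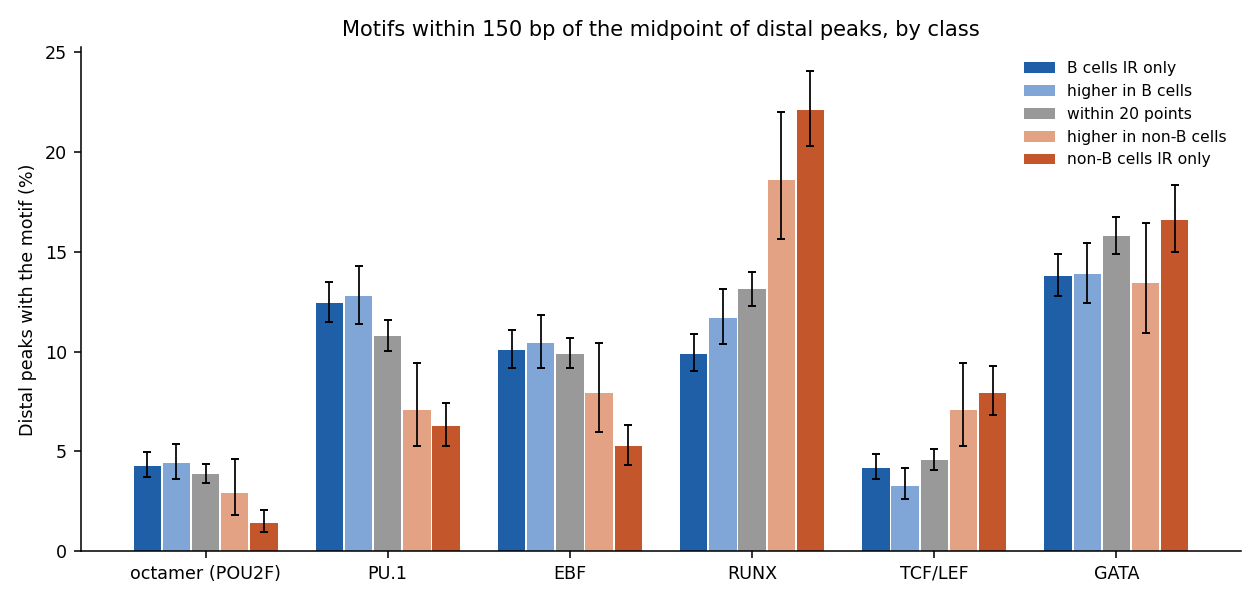
Share of distal peaks (y axis, %) with the letters of 6 motifs within 150 bp of the midpoint, in 5 classes of peaks. Error bars are 95% Wilson intervals. RUNX rises from 9.90% of peaks of B cells alone to 22.1% of peaks of non-B cells alone, and PU.1 falls from 12.5 to 6.26%.

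The classes differed in position as well. Pairs that ranked higher in non-B cells were mainly promoter peaks, with 63.4% (61.0 to 65.7%) of 1583, beside 51.0% of all pairs. They had a median GC content of 55% and a median of 0.733 kb to the nearest start. Of the 3454 pairs higher in B cells 40.1% (38.5 to 41.8%) were promoter peaks, with 49% GC and a median of 11.0 kb. On the scale of the pairs alone the promoter shares were 65.9 and 36.8%. GC content moved with this difference, and its part in it was not tested.

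Over all peaks of a class, response elements lay at 18.6% (17.9 to 19.3%) of pairs within 20 points, 14.7% (13.5 to 15.9%) of pairs higher in B cells and 9.79% (8.42 to 11.4%) of pairs higher in non-B cells, and at 10.8% of peaks of B cells alone and 7.17% of peaks of non-B cells alone. Promoter peaks, which made up more of the pairs higher in non-B cells, had fewer elements. Of distal peaks alone, a choice made after seeing the data, 29.9% (28.8 to 31.1%) of the 6108 pairs within 20 points had one, 19.1% (17.4 to 20.8%) of those higher in B cells and 20.9% (17.8 to 24.4%) of those higher in non-B cells, so that the order of the last pair of classes turned, with overlapping intervals. In distal peaks of 1 list only the shares were 13.0% (12.0 to 14.1%) for B cells and 8.17% (7.01 to 9.49%) for non-B cells. The peaks of 1 list were also the weakest, with the median percentiles given above.

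**Figure D5:**
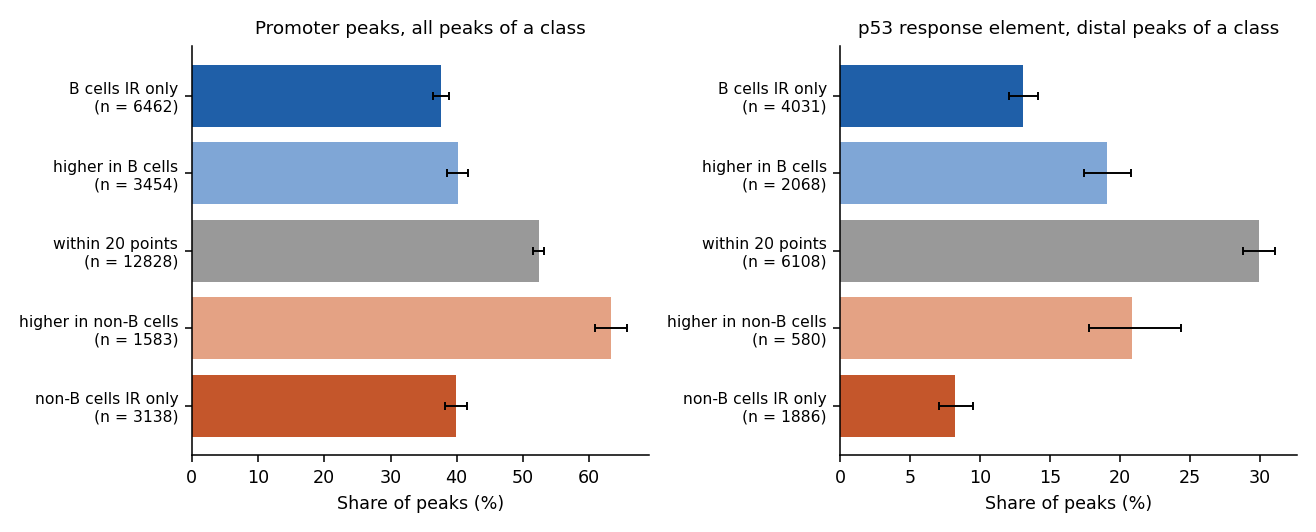
Share of promoter peaks among all peaks of a class (left, %) and share of distal peaks with a p53 response element (right, %), with 95% Wilson intervals. Promoter peaks made up 63.4% of pairs higher in non-B cells, beside 52.4% of pairs within 20 points. Elements lay at 29.9% of distal pairs within 20 points but at 8.17% of distal peaks of non-B cells alone.

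Pairs were also divided by the mock peaks they overlapped. The 650 pairs with a mock peak in B cells alone had a median rank difference of 1.72 points after irradiation (95% interval of the median, 1.13 to 2.32), and the 121 pairs with a mock peak in non-B cells alone one of -2.38 (-5.14 to -0.96). Both intervals cover the spread across pairs, which are not independent replicates. The 356 pairs with mock peaks in both had a median of -0.14 and the 16741 with neither one of 3.29. On the scale of the pairs alone the first 2 medians were 0.55 and -6.08 points. Of the 650 pairs, 64 (9.85%) ranked at least 20 points higher in B cells, below the 19.3% of all pairs, and 16 (2.46%) in non-B cells. Of the 121 pairs, 19 (15.7%) ranked at least 20 points higher in non-B cells, beside 8.87% of all pairs, and 4 (3.31%) in B cells. The pairs with a B cell mock peak had high percentiles, with medians of 88.4 in B and 84.5 in non-B cells.

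Overlap with peaks called without p53 was small. The Trp53-/- list overlapped 6 of 17865 pairs, 0 of the 6462 peaks of B cells alone (upper Wilson bound 0.059%) and 3 of the 3138 peaks of non-B cells alone. Of the pairs, 4 were among those higher in non-B cells, the Axin2 site included.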

How the data were processed

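p53 ChIP-seq libraries of splenic B and non-B cells were sequenced by the authors, aligned to mm9 with BWA (0.6.2 per the submitters' processing notes), and turned into 1 MACS peak list per library. The deposited values were read as −log10 p-values that the authors obtained for each peak. This was inferred from the values, since 36.6% of 19697 B cell values and 35.1% of 17443 non-B values below 40 equalled −log10 Poisson probabilities at a single background mean (2.03 and 2.02 reads). The other values below 40 did not match at that mean, so the unit is not certain. A calling limit of 1e-08 is stated in the methods, but both lists start at 5.27. Read depth is not given in the lists, so the precision of a value is unknown.

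Percentiles were taken within each list (ties averaged). Pairs were mutual best partners, by bases shared. The position, nearest gene, GC content, motifs and response element of a pair were those of its B cell peak. Start sites, features and promoters (5 kb upstream to 2 kb downstream) came from GENCODE vM1 on mm9, and 14 B and 3 non-B peaks of mitochondrial DNA were assigned to no gene. The response element was a pair of decamers without spacer, with both core bases kept. Further letters searched on both strands were CAGCTG (E-box), GGANTTTCC (NF-kB), TGANTCA (AP-1) and GAAANNGAA (IRF). Named sites were the 10 largest differences in each direction, the 5 largest with a percentile of at least 90 in 1 list, the 5 highest means, the 10 highest peaks of each list alone and, per gene list, the 3 largest differences in each direction and up to 5 genes of 1 list. Pax5, Tcf7, Ebf1, Cd28, Icos, Fasl, Arhgef3 and the abundant p53 targets were described in more detail after their values were seen. The members and gene lists were chosen with earlier results of these data known. Scripts (pysam 0.24.0, pandas 2.3.3, scipy 1.17.1 and numpy 2.4.6, in Python 3.11.15) were checked on simulated lists with known matches, ranks and elements. Some items are not reported here.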

Additional observations from a re-analysis of the deposited data

How the results depend on the processing

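No paired analysis was possible because B and non-B cells had a single library apiece, so none could be left out. None of the 93 alternatives reversed the sign of a result, but shares and counts have no sign to reverse, so only the median rank differences could. Orders between groups did turn. Lists of equal size turned that of the genes with peaks in 1 list only, to 875 in B and 1047 in non-B cells. Distal peaks alone turned that of response elements between pairs higher in B and in non-B cells, and promoter peaks alone did not. Matched shares in B and non-B cells were 73.0 and 84.6% with at least 50% of the shorter peak shared, 79.6 and 80.9% with lists of equal size, and in B cells 74.6% with midpoints within 500 bp and 75.5% with peaks closer than 500 bp merged. Pairs higher in B and in non-B cells were 14.7 and 13.1% with equal lists, 13.9 and 13.8% with percentiles among the pairs and 21.2 and 9.97% ranked by width. In the order higher in B, higher in non-B, B alone and non-B alone, response elements were found in 8.54, 5.75, 5.29 and 3.28% with at most 2 mismatches, in 22.6, 16.3, 19.5 and 14.9% with at most 4, in 13.0, 8.40, 9.32 and 5.35% within 150 bp, and in 19.1, 20.9, 13.0 and 8.17% of distal peaks alone. Promoter shares were 26.0, 54.8, 24.4 and 27.9% within 1 kb of any start, and 33.9, 58.2, 31.0 and 33.2% with protein-coding starts. With classes from percentiles among the pairs, promoters made up 36.8% (higher in B) and 65.9% (higher in non-B), and elements 16.7% in the first. The median for pairs with a B cell mock peak was 0.55 points among the pairs and 1.13 with mock values of at least 8, and that for a non-B mock peak -6.08 among the pairs. The B cell gene median was 8.00 points with promoter peaks alone and 7.53 by width, and that of T and NK cell genes -5.25 among the pairs and -4.66 by width. Non-B peaks without a partner at B cell genes were 14 with equal lists. Distal peaks alone, classes among the pairs, genes without any matched peak, and equal lists for peaks at lineage genes were chosen after seeing the data. The rank rests on values read as p-values, and p-values depend on library depth.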
